A study of Mus musculus with 6 samples.

Results

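Molecular chaperones were followed in primary microglia (PM) that had received the histone demethylase inhibitor GSK-J4 with or without lipopolysaccharide (LPS). The set was fixed by name and holds 36 genes of the 24411 features in the count tables. It comprises 2 heat shock transcription factors, the cytosolic HSP70, HSP110, HSP40, HSP90, BAG and small HSP families with their partners, the TCP1 ring chaperonin, and 4 chaperones that work in mitochondria (Hspa9, Hspd1, Hspe1 and Trap1). The rule used gene names and no measured value, but the members were chosen with earlier results of these data known. All 36 passed the filter on low counts.

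Cells keep proteins folded with layered families of chaperones. HSP40 (J-domain) proteins hand clients to HSP70 and start its ATP cycle, HSP110 and BAG proteins release the nucleotide, HSP90 matures signalling proteins with its co-chaperones, small HSPs hold unfolding proteins without ATP, and chaperonins fold clients in a closed chamber. Under proteotoxic stress the transcription factor HSF1 forms trimers and binds heat shock elements, which are inverted repeats of the unit GAA, in front of inducible chaperone genes, whereas constitutive members such as Hspa8 and Hsp90ab1 are expressed in unstressed cells. In macrophages and microglia, chaperones also serve the folding of signalling proteins downstream of the LPS receptor.

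The PM came from pooled brains of neonatal ICR mice and were shaken off mixed glial cultures after 2 weeks. RNA-seq libraries of 3 samples treated for 4 h with GSK-J4 (10 µM) were compared with 3 samples that received LPS (10 ng/ml) and GSK-J4 (10 µM). GSK-J4, an inhibitor of the H3K27 demethylase JMJD3, was thus present in every library. Untreated or LPS-only PM were not analysed here, so that the response to GSK-J4 itself was not measured here. The study reports Hspa1a and Hspa1b among the genes raised in PM by GSK-J4 alone. The GSK-J4 levels below are therefore not those of untreated cells. The study describes the triplicates as biological replicates from independent experiments, and p-values measure the spread between these samples.

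Counts on genes ranged from 2597505 to 3472716 per library, and 3 counts corresponded to 0.673 to 1.24 CPM (TMM-normalized counts scaled to a common library size of 1e6). The ribosomal RNA precursor Rn45s took 22.2 to 32.4% of them in GSK-J4 and 45.8 to 48.1% in LPS + GSK-J4, and replicate 3 of each group stood apart from the other libraries of its group. The microglial markers, led by Csf1r, Cd68 and Cx3cr1, summed to 2400.4 to 2521 CPM in the GSK-J4 libraries and were lower in the LPS + GSK-J4 libraries (1837 to 1999 CPM). All 9 were detected, and all 9 had negative log2-fold changes (median -0.46). Lower in every LPS + GSK-J4 library than in every GSK-J4 library were 6 of them, against 18.4% of the genes tested. At an adjusted p of at most 0.01, 2 of them (Cx3cr1 and Csf1r) fell. Of the 10133 genes tested, 5.46% fell and 8.42% rose, the shares beside which the small counts of called markers stand. Marker lists of other brain cells went the other way. Astrocyte markers summed to 53.9 to 59.4 CPM in GSK-J4 and 131 to 159 CPM in LPS + GSK-J4, with 3 of 7 tested genes up, Gjb6 with counts in 1 library only and S100b at no more than 1.56 CPM. Oligodendrocyte lineage markers summed to 189.9 to 221 CPM against 366 to 423 CPM, with 5 of 7 tested genes up. Neuronal markers summed to 19.6 to 23.8 CPM against 46.7 to 52.7 CPM, with 3 of 3 tested genes up and Rbfox3, Snap25 and Syt1 at or near 0. Fibroblast and endothelial markers overlapped between the groups (83.1 to 278 CPM against 149 to 448 CPM), with 1 of 6 tested genes up and Cldn5 at 0 in every library. These sums differed between the groups beside every chaperone result that follows, and their part in those results was not tested.

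**Figure D1:**
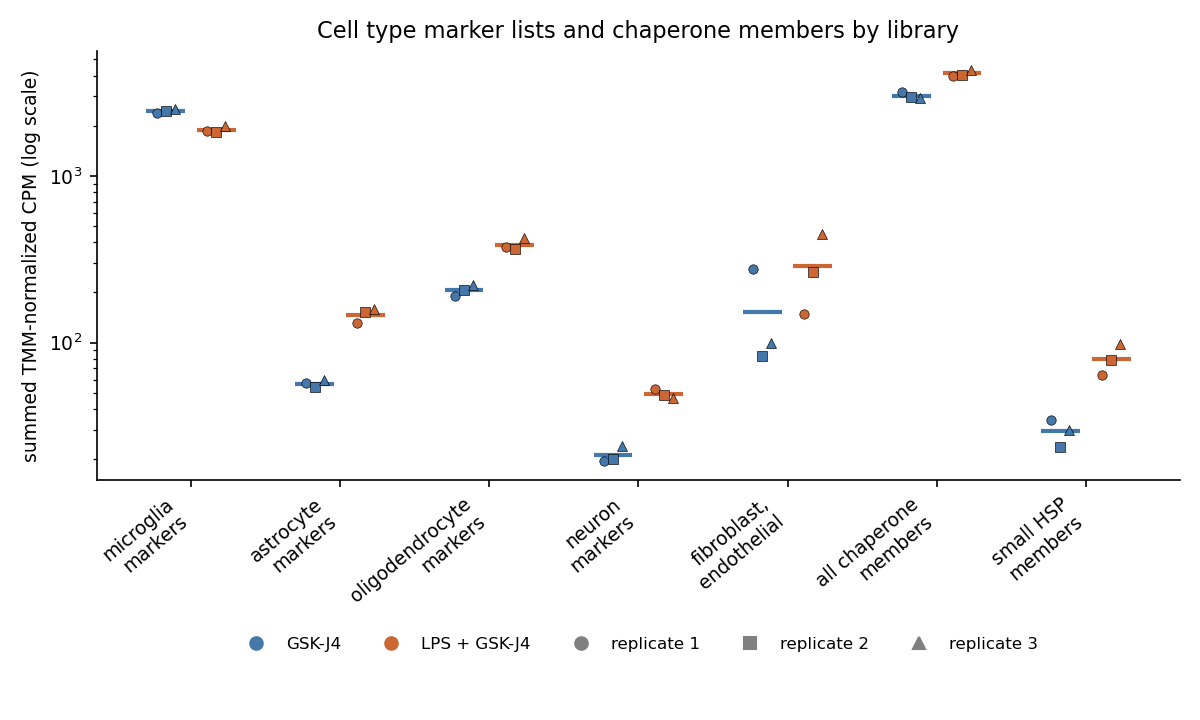
Summed TMM-normalized CPM (log axis) of 5 marker lists, of the 36 chaperone genes and of the 2 small HSP members in each library, with bars at the group means (n = 3). The chaperone sums lay between 2956 and 3184 CPM in GSK-J4 and between 3996 and 4309 CPM in LPS + GSK-J4, and the astrocyte, oligodendrocyte and neuronal sums were also higher in every LPS + GSK-J4 library.

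To see which of these genes carry heat shock elements, the RefSeq promoter windows (GRCm38.p6, 250 bases before to 50 after the annotated start) were searched for 2 adjoining GAA units in inverted orientation. The letters were GAANNTTC and TTCNNGAA, each of which is its own reverse complement, so that a match holds for both strands, and neighbouring matches may overlap. The word was found in 15.1% of all 32851 windows and in 13.6% of the 7788 tested genes that had one. Of the 36 chaperone genes 30 had a window, and the word was present in 16 of these (53.3%). Genes of the HSF1 pathway were listed by name for this set, so its higher share follows in part from that choice. The 3-unit words GAANNTTCNNGAA and TTCNNGAANNTTC, which always contain 2-unit words, were found in 0.603% of all windows and in 5 of the 30 genes (Hsph1, Dnajb6, Chordc1, Hspd1 and Hspe1). A match describes the letters of the window. It is not evidence of a bound site.

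The windows below, each 300 bases and written 5′ to 3′ on the strand of the gene with the heat shock element words in capitals, are those of the inducible HSP70 pair, of Hsph1 as the risen member with a 3-unit word, of the members with the largest log2-fold changes (Dnaja4 and Hspb1), and of 2 members with 3-unit words that did not pass the test (Chordc1 and Hspe1). Where a gene had several windows, the one with the most words is shown. They lie at chr17:34972107-34972406 (minus strand, Hspa1a), chr17:34959189-34959488 (minus, Hspa1b), chr5:149636266-149636565 (minus, Hsph1), chr5:135887669-135887968 (plus, Hspb1), chr9:54699309-54699608 (plus, Dnaja4), chr9:18292017-18292316 (plus, Chordc1) and chr1:55087898-55088197 (plus, Hspe1).
Hspa1a: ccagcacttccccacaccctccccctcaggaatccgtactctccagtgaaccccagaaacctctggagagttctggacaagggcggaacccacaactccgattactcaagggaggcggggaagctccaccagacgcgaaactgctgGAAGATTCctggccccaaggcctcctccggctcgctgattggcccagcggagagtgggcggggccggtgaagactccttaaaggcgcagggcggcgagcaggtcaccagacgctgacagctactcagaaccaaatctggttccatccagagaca
Hspa1b: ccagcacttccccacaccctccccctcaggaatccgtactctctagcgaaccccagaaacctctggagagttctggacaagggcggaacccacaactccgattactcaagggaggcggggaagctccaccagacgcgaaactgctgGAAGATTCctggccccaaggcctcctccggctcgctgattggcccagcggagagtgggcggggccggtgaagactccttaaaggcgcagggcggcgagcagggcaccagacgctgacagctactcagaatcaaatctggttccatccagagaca
Hsph1: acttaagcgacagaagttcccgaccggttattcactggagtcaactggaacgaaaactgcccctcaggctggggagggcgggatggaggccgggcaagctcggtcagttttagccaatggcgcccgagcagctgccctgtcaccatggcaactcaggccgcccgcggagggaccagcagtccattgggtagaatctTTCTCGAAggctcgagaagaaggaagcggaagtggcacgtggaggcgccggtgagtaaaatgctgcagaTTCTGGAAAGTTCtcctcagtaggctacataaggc
Hspb1: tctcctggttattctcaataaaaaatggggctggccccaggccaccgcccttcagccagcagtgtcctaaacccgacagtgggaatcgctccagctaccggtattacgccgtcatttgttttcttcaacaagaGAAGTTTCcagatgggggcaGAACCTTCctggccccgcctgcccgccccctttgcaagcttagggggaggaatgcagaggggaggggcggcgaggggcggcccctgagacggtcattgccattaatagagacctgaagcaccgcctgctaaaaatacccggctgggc
Dnaja4: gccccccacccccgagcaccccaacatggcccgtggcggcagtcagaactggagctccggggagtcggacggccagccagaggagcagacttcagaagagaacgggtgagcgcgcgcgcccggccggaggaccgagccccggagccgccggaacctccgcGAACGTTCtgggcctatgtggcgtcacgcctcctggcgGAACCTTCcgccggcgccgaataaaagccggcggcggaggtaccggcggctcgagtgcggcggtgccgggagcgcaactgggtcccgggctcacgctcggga
Chordc1: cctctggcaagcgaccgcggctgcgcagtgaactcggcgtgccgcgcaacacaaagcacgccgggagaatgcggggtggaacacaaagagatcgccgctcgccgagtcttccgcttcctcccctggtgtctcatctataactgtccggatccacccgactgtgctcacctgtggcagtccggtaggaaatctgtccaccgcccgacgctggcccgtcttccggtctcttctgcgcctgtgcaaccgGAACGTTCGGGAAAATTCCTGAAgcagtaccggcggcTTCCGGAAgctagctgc
Hspe1: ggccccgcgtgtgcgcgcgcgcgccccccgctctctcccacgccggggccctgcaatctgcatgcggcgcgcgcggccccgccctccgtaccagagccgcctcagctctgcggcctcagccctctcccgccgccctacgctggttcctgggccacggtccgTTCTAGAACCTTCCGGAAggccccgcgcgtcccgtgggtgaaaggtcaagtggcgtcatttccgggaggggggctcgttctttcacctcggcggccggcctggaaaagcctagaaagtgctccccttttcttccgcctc

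The Hspa1a and Hspa1b windows were identical at 296 of 300 positions (98.7%), and both carried a single word at -104 to -97, counted from the start as position 0. Hspb1 carried words at -117 to -110 and -97 to -90, and Dnaja4 at -90 to -83 and -52 to -45. In Chordc1 4 overlapping words ran across the start, from -4 to 18, and another lay at 33 to 40. Hspe1 and Hspd1 are transcribed head to head from a shared promoter, and the same run of letters was counted for both, at -89 to -72 for Hspe1 and at -144 to -127 for Hspd1.

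The 36 genes took 0.538 to 0.591% of the counts outside ribosomal features in the GSK-J4 libraries and 0.725 to 0.759% in the LPS + GSK-J4 libraries. Of the 36, 11 rose (adjusted p of at most 0.01 by the quasi-likelihood test of edgeR, Benjamini-Hochberg over all genes tested), against 8.42% of the 10133 genes tested. None fell, against 5.46% of the genes tested. Of the 12 members listed as stress-inducible 9 rose. Of the 24 others 2 rose (8.33%), near the share of all genes tested that rose. That list, too, was chosen with earlier results of these data known. At an unadjusted edgeR p under 0.05, 20 of the 36 were higher and 0 lower, against 1958 higher and 1573 lower of the 10133 genes tested. DESeq2 also called 11 up and 0 down, where it called 687 up and 568 down over all genes. Expression in all 3 LPS + GSK-J4 libraries lay above all 3 GSK-J4 libraries for 19 of the 36 (19.8% of the genes tested) and below them for none (18.4%). The median log2-fold change of the 36 was 0.35 (range -0.22 to 2.09), where that of all genes tested was -0.00064. At the study's thresholds, which also require a log2-fold change of at least 1.5, 2 were called up (Dnaja4 and Hspb1) against 2.95% of the genes tested and 0 down against 0.809%. The number that rose depended on which libraries were kept. It was 7 without LPS + GSK-J4 replicate 2, 14 without LPS + GSK-J4 replicate 3, and 13 with both replicates numbered 3 left out. The number called up at the study's thresholds was 0 in that last case. In bulk RNA, fewer cells of a type and less RNA per cell cannot be told apart.

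**Figure D2:**
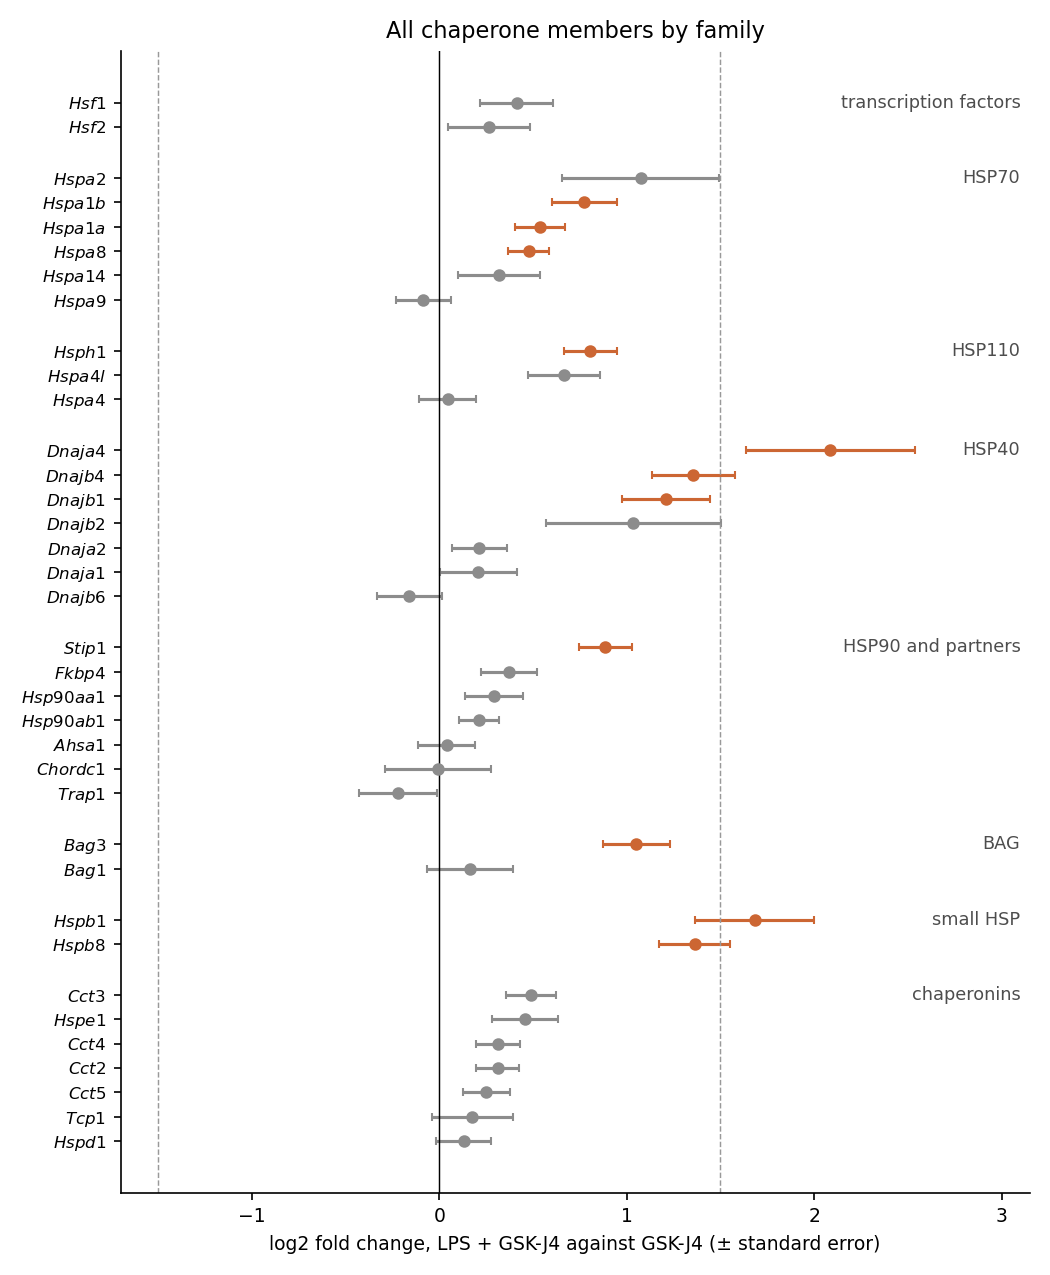
Log2-fold change (LPS + GSK-J4 against GSK-J4, ± standard error, 3 libraries a group) of the 36 genes by family, with those that rose in orange, the others in grey and dashed lines at the study's threshold of 1.5. The 11 that rose lie between 0.48 and 2.09, and the 7 chaperonin genes lie between 0.13 and 0.49 with none past the test.

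By family, the 11 that rose were 3 of 6 HSP70, 1 of 3 HSP110, 3 of 7 HSP40 and 1 of 2 BAG genes, both small HSPs, and 1 of the 7 genes of HSP90 and its partners. None of the 2 transcription factors, the 7 chaperonin genes and the 4 mitochondrial chaperones rose. Families this small cannot show whether none or 1 risen gene differs from the 8.42% of all genes tested that rose.

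Hsf1, the regulator of the heat shock response (chr15:76477422-76501913 in mm10, like all positions of genes here), was measured at 17.5, 18.9 and 18.7 CPM in GSK-J4 replicates 1, 2 and 3 and at 21.1, 22.5 and 29.7 CPM in LPS + GSK-J4. The groups did not overlap, but the log2-fold change of 0.41 (SE 0.19) did not pass the edgeR test (adjusted p = 0.14). Hsf2, its relative with roles in development, overlapped between the groups (15.9 to 24.1 CPM and 18.2 to 28.2 CPM; log2-fold change 0.27, SE 0.22). The mRNA of HSF1 does not report its activity, which is set after translation.

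The stress-inducible HSP70 genes Hspa1a (chr17:34969190-34972156) and Hspa1b (chr17:34956436-34959238) lie next to each other in the major histocompatibility region and encode nearly the same protein. Hspa1a was measured at 258, 221 and 260.0 CPM in GSK-J4 and at 318, 320.2 and 433 CPM in LPS + GSK-J4. Hspa1b was measured at 255, 241 and 345 CPM in GSK-J4 and at 388, 422 and 626 CPM in LPS + GSK-J4. For both genes every LPS + GSK-J4 library was above every GSK-J4 library, and LPS + GSK-J4 replicate 3 was the highest. Hspa1a rose 1.45-fold (log2-fold change 0.54, SE 0.13, edgeR adjusted p = 0.0081) and Hspa1b 1.71-fold (0.77, SE 0.17, edgeR adjusted p = 0.0036). Of the 101-base stretches in their transcripts, 48.5% of those of Hspa1a and 49.7% of those of Hspa1b also occur in a transcript from another locus, mostly in each other, and fragments from them that map to several places were left out of the counts. Their separate values are therefore uncertain, and the sum of the pair was 513, 462 and 605 CPM without LPS and 707, 742 and 1058 CPM with it. The call for Hspa1a was lost in 5 of the 6 fits that left out 1 library (each of them except the fit without LPS + GSK-J4 replicate 1), with edgeR adjusted p of 0.0129 to 0.0591, and when libraries were scaled to their total outside ribosomal features (0.0101). That for Hspa1b was lost without GSK-J4 replicate 1, GSK-J4 replicate 2 or LPS + GSK-J4 replicate 2 (0.0104 to 0.0247).

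Hspa8 (chr9:40800984-40810087) encodes the constitutive HSP70, which folds new proteins and uncoats clathrin. It gave 566, 519 and 483 CPM in GSK-J4 and 704, 679 and 800.3 CPM in LPS + GSK-J4, without overlap. It rose 1.39-fold (log2-fold change 0.48, SE 0.11, edgeR adjusted p = 0.0049), the smallest change among the 11. The call was lost without GSK-J4 replicate 2, GSK-J4 replicate 3, LPS + GSK-J4 replicate 1 or LPS + GSK-J4 replicate 2 (edgeR adjusted p of 0.0104 to 0.0324), and 63.3% of its 101-base stretches recur in transcripts from other loci. The other 3 HSP70 members did not pass. Hspa2, best known from spermatogenesis, was low throughout (2.12 to 3.37 CPM without LPS, 3.43 to 8.67 CPM with it; log2-fold change 1.08, SE 0.42, edgeR adjusted p = 0.076). Ribosome-associated Hspa14 had a log2-fold change of 0.32 (SE 0.22), and mitochondrial Hspa9 one of -0.09 (SE 0.15).

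HSP110 proteins are large HSP70 relatives that act as its nucleotide exchange factors. Hsph1 (chr5:149614287-149636376), the heat-inducible one, gave 67.0, 50.5 and 68.9 CPM in GSK-J4 and 105, 117 and 103 CPM in LPS + GSK-J4. The lowest LPS + GSK-J4 library was thus well above the highest GSK-J4 library, and the gene rose 1.75-fold (log2-fold change 0.81, SE 0.14, edgeR adjusted p = 0.00062). Hspa4l was also higher without overlap (17.2 to 26.7 CPM against 32.2 to 38.6 CPM), and its log2-fold change of 0.67 (SE 0.19) missed the threshold (edgeR adjusted p = 0.019). It passed without LPS + GSK-J4 replicate 3 (0.0071). Hspa4, the constitutive member, was measured at 70.8 to 82.8 CPM and 64.4 to 96.2 CPM. Its log2-fold change was 0.05 (SE 0.15), with a 95% interval from -0.25 to 0.34.

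Of the 7 HSP40 genes 3 rose, and their changes were among the largest of the set. Dnajb1 (chr8:83608193-83612653), the main heat-inducible partner of HSP70, gave 15.8, 9.20 and 19.1 CPM in GSK-J4 and 35.1, 29.0 and 35.5 CPM in LPS + GSK-J4. It rose 2.31-fold (log2-fold change 1.21, SE 0.23, edgeR adjusted p = 0.0012), with no overlap between the groups. Dnajb4 (chr3:152178511-152210302), a close relative of Dnajb1, gave 31.4, 33.0 and 22.4 CPM in GSK-J4 and 85.9, 91.6 and 47.1 CPM in LPS + GSK-J4. Replicate 3 was the lowest library of each group, and the groups did not overlap (log2-fold change 1.35, SE 0.22, edgeR adjusted p = 0.00029).

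Dnaja4 (chr9:54698873-54716315), a farnesylated J-domain protein, had the largest log2-fold change of the set and few reads. Its counts were 9, 8 and 2 in GSK-J4 and 10, 19 and 25 in LPS + GSK-J4, or 2.12, 1.80 and 0.733 CPM against 3.90, 7.25 and 10.3 CPM. The libraries of the 2 groups did not overlap, but the value of GSK-J4 replicate 3 rested on fewer than 3 counts. The fitted log2-fold change was 2.09 (SE 0.45, edgeR adjusted p = 0.0029). It fell short of the threshold without GSK-J4 replicate 3 (1.84, adjusted p = 0.013), without LPS + GSK-J4 replicate 2 (2.08, 0.017) and without both replicates numbered 3 (1.51, 0.025). The remaining J-domain genes overlapped between the groups. Dnaja1 and Dnaja2, the abundant housekeeping type, each had a log2-fold change of 0.21. Dnajb2, known from neurons, had 1.04 (SE 0.47) at 1.35 to 9.08 CPM, and Dnajb6, a suppressor of protein aggregation, -0.16 (SE 0.17).

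**Figure D3:**
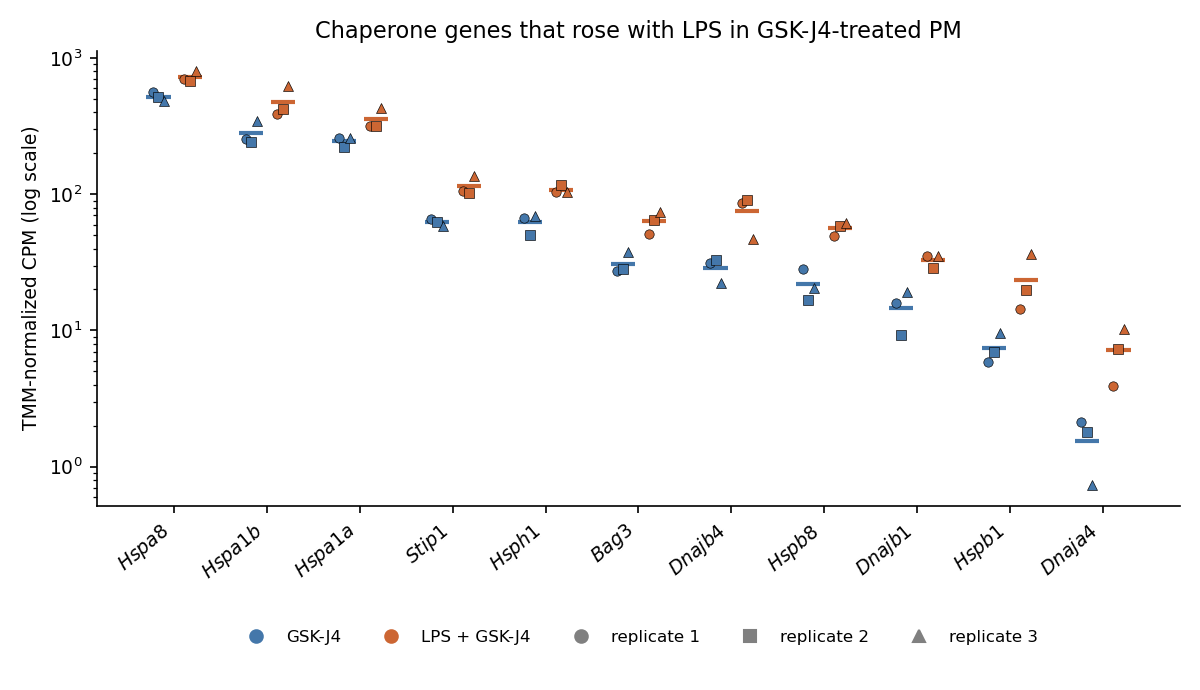
TMM-normalized CPM (log axis) of the 11 chaperone genes that rose, in each GSK-J4 (blue) and LPS + GSK-J4 (orange) library, with bars at the group means (n = 3) and symbols for the replicate number. For each gene all LPS + GSK-J4 libraries lie above all GSK-J4 libraries, from Hspa8 at 483 to 800.3 CPM down to Dnaja4 at 0.733 to 10.3 CPM.

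Neither cytosolic HSP90 gene passed the test, whereas the adaptor that links HSP90 to HSP70 rose. Hsp90aa1, the inducible isoform, gave 238, 217 and 176 CPM in GSK-J4 and 299, 277 and 197 CPM in LPS + GSK-J4. LPS + GSK-J4 replicate 3 lay within the GSK-J4 range, and the log2-fold change of 0.29 (SE 0.15) did not pass (edgeR adjusted p = 0.19). It passed without LPS + GSK-J4 replicate 3 (0.45, adjusted p = 0.0067) and without both replicates numbered 3 (0.35, 0.0057). Of its 101-base stretches 47.3% recur elsewhere. Hsp90ab1, the constitutive isoform, was higher without overlap (341 to 381 CPM against 407 to 432 CPM) by a log2-fold change of 0.21 (SE 0.11), which did not pass (edgeR adjusted p = 0.17).

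Stip1 (chr19:7020702-7039967), also called HOP, bridges HSP70 and HSP90 so that clients pass from the former to the latter. It gave 65.6, 62.2 and 59.0 CPM in GSK-J4 and 106, 102 and 138 CPM in LPS + GSK-J4. The GSK-J4 libraries lay close together and far below the others, and the gene rose 1.85-fold (log2-fold change 0.88, SE 0.14, edgeR adjusted p = 0.00025). None of the other HSP90 partners passed. Fkbp4, a peptidyl-prolyl isomerase of steroid receptor complexes, was higher without overlap (36.1 to 45.1 CPM against 50.8 to 54.5 CPM; log2-fold change 0.37, SE 0.15, edgeR adjusted p = 0.081). Ahsa1, which activates the HSP90 ATPase, had a log2-fold change of 0.04 (95% interval -0.26 to 0.34). Chordc1, a heat-inducible HSP90 co-chaperone, had one of -0.01 with a wide interval (-0.56 to 0.55), and mitochondrial Trap1 one of -0.22 (SE 0.21).

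BAG proteins release ADP from HSP70. Bag3 (chr7:128523616-128546981), the stress-inducible member, which joins HSP70 to small HSPs in selective autophagy, gave 27.1, 28.1 and 37.4 CPM in GSK-J4 and 51.1, 64.5 and 74.3 CPM in LPS + GSK-J4. It rose 2.07-fold without overlap (log2-fold change 1.05, SE 0.18, edgeR adjusted p = 0.0004). Bag1 overlapped between the groups (11.6 to 16.9 CPM and 12.8 to 17.2 CPM) and had a log2-fold change of 0.16 (SE 0.23).

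Both small HSP members rose. Hspb8 (chr5:116408491-116422864), the client-holding partner of BAG3, gave 28.3, 16.8 and 20.5 CPM in GSK-J4 and 49.6, 58.8 and 61.1 CPM in LPS + GSK-J4. It rose 2.57-fold (log2-fold change 1.36, SE 0.19), with the smallest adjusted p of the set (7.5e-05 by edgeR). Hspb1 (chr5:135887919-135889563), known as HSP25 in the mouse, gave 5.90, 6.96 and 9.53 CPM in GSK-J4 and 14.4, 19.8 and 36.3 CPM in LPS + GSK-J4. LPS + GSK-J4 replicate 3 was far above the others, and the lowest LPS + GSK-J4 library was still above all GSK-J4 libraries. Its log2-fold change was 1.68 (SE 0.32, edgeR adjusted p = 0.00096), and 42.5% of its 101-base stretches recur elsewhere, mainly in the pseudogene Hsp25-ps1. The members of this family summed to 23.8 to 34.2 CPM in GSK-J4 and 64.0 to 97.5 CPM in LPS + GSK-J4. Small HSPs are also expressed by astrocytes, endothelium and muscle-like cells. Of the 7 tested astrocyte markers, 3 rose beside them (Gfap, Gja1 and Aqp4, log2-fold changes 1.70, 1.38 and 1.37). The other 4 did not pass, and Aldh1l1 among them had -0.16. Gfap, the largest change of that list, gave 14.1 to 18.4 CPM against 43.3 to 66.9 CPM. LPS + GSK-J4 replicate 3 was also the highest library for the fibroblast and endothelial list (448 CPM), in which 1 of 6 tested genes rose (Cdh5). The part of such cells in the small HSP values was not tested.

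Of the 7 chaperonin genes 0 passed the test, which is near the share of all genes tested. All 7 had positive log2-fold changes, against 5062 of the 10133 genes tested. Higher without overlap were 3 (Cct2, Cct3 and Cct4), against 19.8% of the genes tested. Cct3, a subunit of the TCP1 ring that folds actin and tubulin, gave 100.3, 93.4 and 78.1 CPM in GSK-J4 and 117, 138 and 127 CPM in LPS + GSK-J4. Its log2-fold change of 0.49 (SE 0.13) was the largest of the family and just missed the threshold (edgeR adjusted p = 0.014). It passed without LPS + GSK-J4 replicate 3 and without both replicates numbered 3 (0.0068 and 0.0065). The ring subunits Cct2, Cct4, Cct5 and Tcp1 had 0.31, 0.31, 0.25 and 0.18.

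The mitochondrial pair Hspd1 (HSP60) and Hspe1 (HSP10), which form the folding chamber of the matrix, had 0.13 (SE 0.15) and 0.46 (SE 0.17). Hspe1 gave 36.8, 37.9 and 46.2 CPM in GSK-J4 and 62.1, 61.4 and 41.3 CPM in LPS + GSK-J4, so that LPS + GSK-J4 replicate 3 alone lay within the GSK-J4 range. Without that library the change passed (log2-fold change 0.63, edgeR adjusted p = 0.0025). Hspd1 overlapped between the groups (104 to 143 CPM and 125 to 163 CPM).

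Per kb of exon, the order of levels was headed by constitutive and inducible genes alike. In GSK-J4, Hspa8 (121 ± 9.77 CPM per kb, SD, n = 3), Hsp90ab1 (119.7 ± 6.78) and Hspa1b (100.0 ± 20.2) did not differ beyond their spread, and Hspa1a (83.1 ± 7.34), Cct2 (62.0 ± 3.09) and Hsp90aa1 (53.4 ± 8.02) came next. The lowest levels were those of Hspa2 (0.970 ± 0.264), Dnajb2 (0.722 ± 0.538) and Dnaja4 (0.432 ± 0.202). In LPS + GSK-J4, Hspa1b (171 ± 45.8) and Hspa8 (169 ± 14.9) headed the order within each other's spread, before Hsp90ab1 (139 ± 4.58) and Hspa1a (120.4 ± 22.1), which overlapped. Fragments of Hspa8, Hspa1a, Hspa1b and Hsp90aa1 that map to several places are not in these levels. The length used is that of all annotated exons of a gene. For Hspa8 this was 4.301 kb, where its longest coding transcript has 2394 bases, and for Hspa1b it was 2.803 kb, where that transcript has 2803 bases. The order of genes, including the ties between Hspa8 and Hspa1b, therefore depends on the length chosen. Stip1 was at 29.5 ± 1.56 CPM per kb without LPS and 54.7 ± 9.17 with it, Hspb8 at 11.2 ± 3.00 and 29.0 ± 3.13, and Bag3 at 12.05 ± 2.22 and 24.7 ± 4.55.

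**Figure D4:**
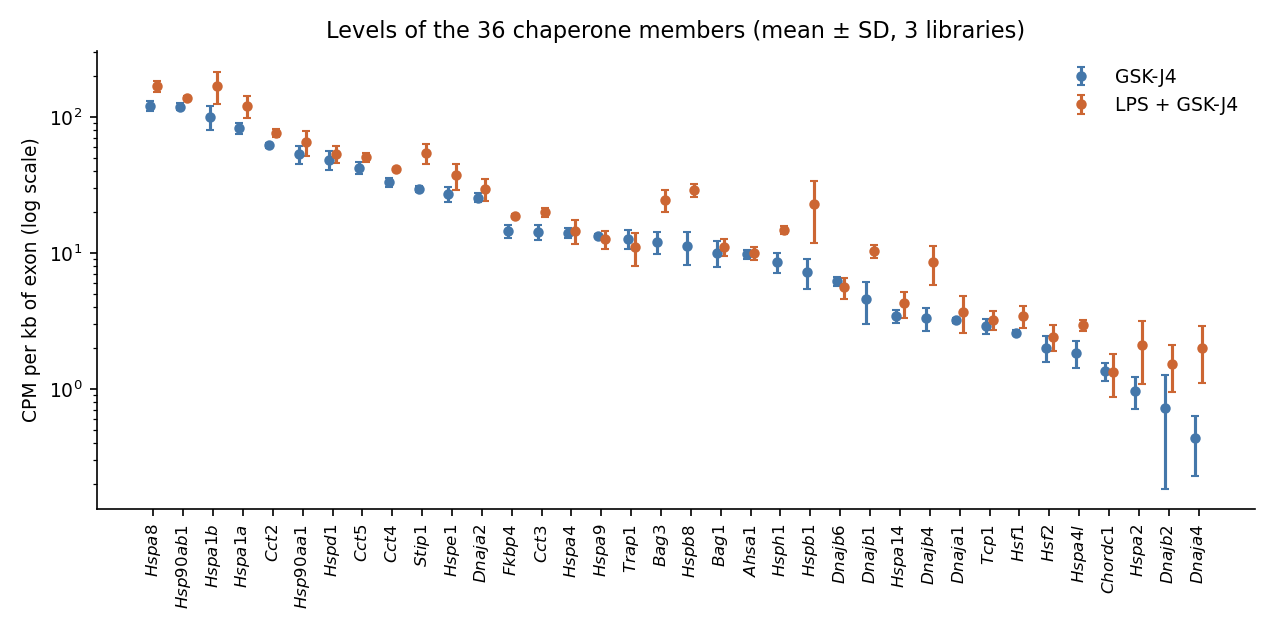
Mean TMM-normalized CPM per kb of exon (log axis, ± SD, 3 libraries a group) of the 36 chaperone genes, ordered by their level in GSK-J4. The levels in GSK-J4 run from 121 (Hspa8) to 0.432 (Dnaja4), and the gaps between the groups are widest among genes of low and middle level such as Dnaja4, Hspb1, Hspb8 and Dnajb4.

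Read against the promoter windows, the 2-unit heat shock element word was present in 8 of the 10 risen genes with a window (80%) and in 8 of the 20 others (40%). The nearly identical windows of Hspa1a and Hspa1b count separately among the risen genes, as does the shared run of Hspd1 and Hspe1 among the others. The risen genes without the 2-unit word were Dnajb1 and Stip1, and Hspa8 had no window. The 3-unit word was present in 1 of the 10 risen genes (Hsph1) and in 4 of the 20 others. Chordc1, whose window printed above held the most words, had a log2-fold change of -0.01. These shares describe the letters of 300 bases around each start, and elements farther away were not searched.

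**Figure D5:**
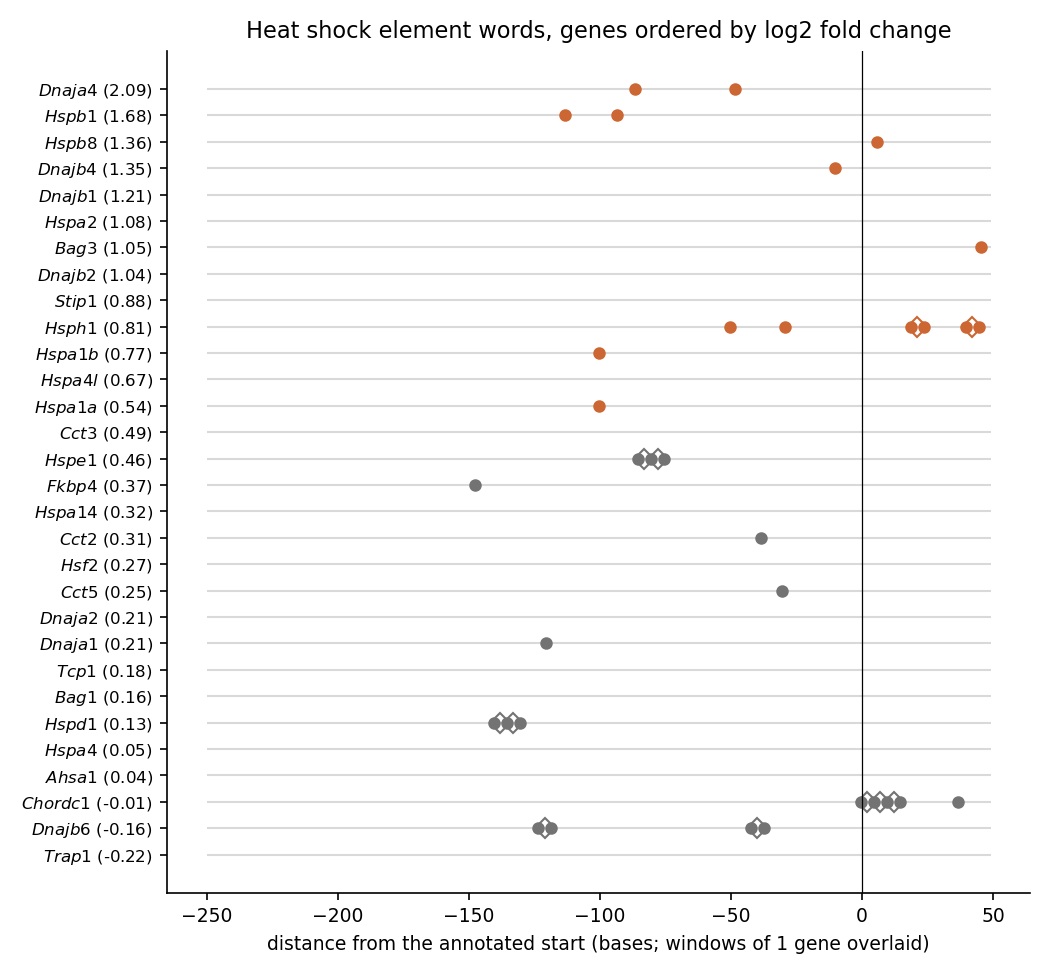
Positions of the 2-unit (dots) and 3-unit (diamonds) heat shock element words within 250 bases before and 50 after the annotated start in the 30 chaperone genes with a window, ordered by log2-fold change (in parentheses), with risen genes in orange. Words are present in 8 of the 10 risen genes and 8 of the 20 others, and Chordc1 and Dnajb6, which hold 3-unit words, lie near the bottom.

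The same families hold 56 further genes, of which 49 were tested. Of these 2 rose (4.08%, against 8.42% of all genes tested) and 3 fell (6.12%, against 5.46%), both near or below background, and their median log2-fold change was 0.02. None of the 9 chaperonin and prefoldin genes and none of the 10 HSP90 partners passed. The 14 HSP70 partners outside the set had a median log2-fold change of -0.22, with 12 negative and 2 positive, 0 risen and 1 fallen (Dnajc5). Over all genes tested, 5071 of 10133 had negative values. Lower without overlap were 3 of the 14 partners, against 18.4% of the genes tested, and 1 was higher. The 14 partners summed to 716 to 762 CPM in the GSK-J4 libraries and, without overlap, to 596 to 636 CPM with LPS. Most of this gap came from 3 abundant genes. Mean levels went from 177 to 118 CPM for Dnajc5, from 139 to 120 for St13 and from 159 to 140 for Bag6. St13 and Bag6 overlapped between the groups and did not pass, so the sum does not show a decline across the family. Of 7 further mitochondrial chaperones and proteases, 6 had negative values and 1 fell (Hscb). Cryab, the small HSP that forms mixed oligomers with HSPB1, gave 9.20, 8.98 and 12.5 CPM in GSK-J4 and 22.2, 25.2 and 34.3 CPM in LPS + GSK-J4, without overlap. It rose with a log2-fold change of 1.44 (SE 0.23, edgeR adjusted p = 0.00023). Ier5, an immediate early gene that promotes HSF1 activity, gave 28.3, 25.4 and 38.9 CPM in GSK-J4 and 58.5, 62.2 and 72.3 CPM in LPS + GSK-J4. It also rose without overlap (log2-fold change 1.08, SE 0.17, edgeR adjusted p = 0.00026).

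Zfand2a (AIRAP), an arsenite- and heat-inducible HSF1 target that works at the proteasome, moved the other way. It gave 317, 334 and 333 CPM in GSK-J4 and 156, 157 and 137 CPM in LPS + GSK-J4, 2 tight and well separated groups. It fell by 1.13 on the log2 scale (SE 0.11, edgeR adjusted p = 2.1e-06). Hscb, the mitochondrial J-domain protein of iron-sulfur cluster transfer, gave 14.9, 16.2 and 16.5 CPM in GSK-J4 and 5.85, 7.25 and 7.02 CPM in LPS + GSK-J4. It fell by 1.23 (SE 0.24, edgeR adjusted p = 0.0012), also without overlap. Dnajc5, the cysteine string protein of secretory vesicles, fell by 0.58 (SE 0.12, edgeR adjusted p = 0.0023), with 168 to 183 CPM in the GSK-J4 libraries and 105 to 128 CPM in the others. Its call was lost without GSK-J4 replicate 2, LPS + GSK-J4 replicate 1 or LPS + GSK-J4 replicate 2 (edgeR adjusted p of 0.0138 to 0.016).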

How the data were processed

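PM libraries were grouped by their labels, 3 treated with GSK-J4 and 3 with LPS and GSK-J4. Per the labels and methods, rRNA was depleted with RiboMinus, and directional libraries were sequenced as paired 101-base reads. The authors used CASAVA 1.8.2, trimmed reads with Trimmomatic 0.33, aligned them to mm10 with STAR 2.5.1 and deposited raw counts of uniquely mapped fragments per gene for each library; the gene annotation is not given in the sources used here. The column for the reverse strand was used, and the 4 tallies that name no gene were left out.

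Counts were scaled by TMM, filtered with filterByExpr (10 counts, total of 15) and tested in edgeR 4.0.16 (R 4.3.3, limma 3.58.1) by robust quasi-likelihood F-tests without covariates, with Benjamini-Hochberg adjustment over 10133 genes. A gene rose or fell at an adjusted p of at most 0.01. Standard errors were taken as the log2-fold change over the root of F, and 95% intervals as 1.96 of them. The common biological coefficient of variation was 0.133. On simulated data (9759 genes passing the filter), 49 of 90 genes changed by a log2-fold change of 1 and 98 of 101 changed by 2 were recovered. There were 0 false calls. The simulated spread followed the expression level alone, with no replicate standing apart, so this does not measure the false calls in these libraries. An exact permutation test of 3 against 3 cannot go below 0.1 and was not used.

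Exon lengths and positions came from GENCODE M21 (mm10), and promoter windows from RefSeq (GRCm38.p6). Shared 101-base stretches were counted against transcripts of non-overlapping loci. All 36 members, and genes of the wider list that passed, are named. A microglial marker fixed in the design is not reported here and was left out of its list. The members and lists were chosen with earlier results of these data known. Alternatives were unstranded counts, DESeq2 1.42.0 and its size factors, other filters and thresholds, removal of Rn45s, Mir6236 and Lars2, a replicate block and leaving out libraries. Scaling to the total outside these features was added after seeing the data. Same-numbered libraries deviated together with r of -0.01, 0.117 and 0.295, so the numbers were not taken to pair them. The value of 0.295, for the replicates numbered 3, was the highest between any libraries of the different groups. What these libraries share was not tested. No replicates agreed within counting noise (chi-square per degree of freedom 2.12 to 12.5).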

Additional observations from a re-analysis of the deposited data

Results flagged for a closer look

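Fragments on the strand opposite to Hsp90ab1, which lie outside the column used for the comparisons, were counted in every library. GSK-J4 replicates 1, 2 and 3 held 22, 26 and 17 of them. LPS + GSK-J4 replicates 1, 2 and 3 held 33, 28 and 28 (mean 29.7), above the GSK-J4 mean of 21.7 and without overlap. They made up 2.07% of all Hsp90ab1 fragments on either strand. The difference was not tested, and counts were not scaled to depth.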

How the results depend on the processing

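Of 535 values of single genes under the alternatives, 494 kept their direction and their side of the threshold, 16 lost the call, 10 gained one and 15 changed sign. Hsph1, Dnajb1, Dnajb4, Stip1, Bag3, Hspb1 and Hspb8 kept their calls at an adjusted p of at most 0.01 under every alternative run. The log2-fold change of Hspb1 went down to 1.24 with 1 library left out, under the study's threshold of 1.5. Depth limits the low genes: with at least 10 counts required in every library Dnaja4, Dnajb2 and Hspa2 were not tested, and 1 member was called up at the study's thresholds. With the replicate block 14 of the 36 rose (Hspa4l, Cct2 and Cct3 in addition) and 2 were called up at the study's thresholds, none fell, 4 of the wider list rose, and 1259 of all genes rose and 1016 fell. GSK-J4 replicate 1 correlated best with LPS + GSK-J4 replicate 2, so not every library correlated best with its own number.

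Over all genes tested, an adjusted p of at most 0.05 gave 1386 up and 1004 down (844 and 285 where the log2-fold change also had to reach 1), no filter gave 858 down, and at least 10 counts in every library gave 176 up at the study's thresholds. For the 36 genes that looser pair of thresholds gave 6 up, and both replicates numbered 3 left out gave 0 up at the study's thresholds. In the wider list 4 rose without both replicates numbered 3 and 5 at an adjusted p of at most 0.05 (2 up and 3 down with the looser pair). With 1 library left out, the 36 genes gave 7 to 14 up (1 to 3 at the study's thresholds) and 0 down, the wider list 2 to 3 up (0 to 1) and 2 to 3 down, and all genes 595 to 925 up (271 to 374) and 312 to 679 down (79 to 100). The lowest counts over all genes tested came without GSK-J4 replicate 2 (595 up, 359 down) and without LPS + GSK-J4 replicate 2 (608 up, 312 down).

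Signs changed only for log2-fold changes near 0 that were not called. Hspa4 came to -0.00036 with DESeq2 and -0.0083 without the filter, Ahsa1 to -0.0094 and -0.015 in the same fits, and Chordc1 to 0.016 with unstranded counts. Without both replicates numbered 3, Chordc1 came to 0.23 and Hspa9 to 0.029. With 1 library left out, Hspa9 ranged from -0.16 to 0.033, Hspa4 from -0.10 to 0.18, Ahsa1 from -0.013 to 0.13 and Chordc1 from -0.23 to 0.24. The cause of these shifts was not tested. Every other sign, including those of all 11 risen genes, held under the alternatives run.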
